A study of Ramazzottius varieornatus with 18 samples.

Results

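The transcripts described here are 150 genes of the tardigrade Ramazzottius varieornatus whose levels were highest at Juvenile 2d and lowest at Juvenile 7d, among the 6 juvenile days measured. They were chosen on their values. Genes with a single annotated transcript were taken, with a mean of at least 5 and below 1000 TPM (a read count scaled by coding length and by the total of its library) over the 18 libraries. Genes that the study lists by family name (anti-oxidative stress, tardigrade-specific, molting, Hox and piRNA genes) were set aside. Of the 14532 transcripts of 13920 genes, 7390 lay within these limits. A gene qualified where its daily mean was highest at Juvenile 2d and lowest at Juvenile 7d, and where each of its 3 values at Juvenile 7d was below each of its 3 values at Juvenile 2d. Of the genes that did so, the 150 with the largest log2 ratio of the Juvenile 2d mean to the Juvenile 7d mean (1 TPM added to each, positive where 7d was lower) were kept. The other 306 ranked below them.

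RNA-Seq was performed on whole juveniles of the YOKOZUNA-1 strain, a laboratory line founded from 1 individual and fed on Chlorella, at Juvenile 2d, 3d, 4d, 5d, 6d and 7d, with 3 libraries a day and no treatment. Days follow the labels, which run from 2 to 7, although the methods of the study give days 3 to 7 for the juveniles. The number of animals in a library is not given in the sources used here, and no source says that the 3 libraries of a day came from separate cultures, so p-values measure the spread between these libraries only. Library totals ranged from 1250604 to 5095736 estimated counts, with a median of 3700490.

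A tardigrade hatches as a small juvenile with the body plan of the adult and grows through repeated molts, in which it sheds its cuticle, a process that ecdysteroid hormones time in arthropods. R. varieornatus is known for surviving drying, a capacity tied to abundant heat-soluble proteins and to enzymes that detoxify reactive oxygen species. Among these enzymes, glutathione S-transferases (GST) join glutathione to reactive molecules and superoxide dismutases (SOD) convert superoxide to hydrogen peroxide. The gene numbers of the members matched none of the annotated names used here, so a member is called by its number and no function is given to it. In whole animals, fewer cells of a kind and less RNA per cell cannot be told apart, and no tissue could be checked against its markers because the labels name the entire body.

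The decline of the members was not steady over the days. The 150 members together made up 4.38 ± 0.0332% of all TPM at Juvenile 2d, 2.63 ± 0.193% at 3d, 1.71 ± 0.120% at 4d, 2.23 ± 0.219% at 5d, 1.75 ± 1.10% at 6d and 1.11 ± 0.253% at 7d (SD, n = 3 each). The summed level was thus lower at 4d than at either neighbouring day, and the libraries of 4d, at 1.58, 1.72 and 1.82%, lay below all of those of 3d and of 5d. The 6d libraries were widely apart, with 3.01% in replicate 1 against 1.26% in replicate 2 and 0.973% in replicate 3. Relative to its own level at 2d, the median member stood at 57.0% at 3d, 41.5% at 4d, 52.2% at 5d, 40.5% at 6d and 26.2% at 7d. The values at 2d and 7d follow from the choice of members and are given as a description.

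**Figure D1:**
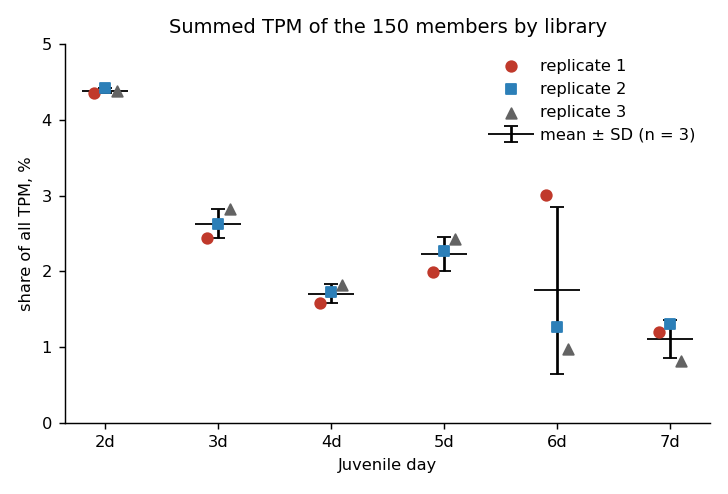
Share of all TPM, in percent, taken by the 150 members in each library (points, replicates 1 to 3) by juvenile day, with the mean and SD of the 3 libraries (bars). The 4d libraries, at 1.58 to 1.82%, sit below those of 3d and 5d, and replicate 1 of 6d, at 3.01%, lies above every library of 3d to 7d.

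Within the set, the ranking value had a median of 1.84 and ranged between 1.43 and 4.84 on the log2 scale, where 16 members had a value of at least 3 and 93 a value under 2. Mean levels ran between 5.34 and 958 TPM with a median of 69.4 TPM, and 56 members exceeded 100 TPM. At the edge of the set, g4677.t1 and g6772.t1 (both 1.43) were the last kept, and g9532.t1 and g9653.t1 (both 1.41) the first left out. The daily mean of g6772.t1 was 46.8 ± 3.33 TPM at 7d and 128 ± 1.87 TPM at 2d, and that of g9653.t1 was 29.7 ± 5.55 TPM at 7d and 80.7 ± 5.09 TPM at 2d (SD, n = 3). The transcripts just inside and just outside the limit therefore had nearly the same ratio, and the limit marks no break.

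The step with the largest drop was the one into 3d in 80 members, into 4d in 27, into 5d in 2, into 6d in 7 and into 7d in 34. This tally rested on 1 library. With the median of the 3 libraries in place of their mean, 53 members had their largest drop at the step into 3d and 60 at the step into 6d. Without Juvenile 6d replicate 1 the numbers were 43 and 83. Only 11 members fell at every one of the 5 steps, 118 fell at 4 and 21 at 3. The upward step was mostly the same one, since the mean of 5d lay above that of 4d in 122 members.

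**Figure D2:**
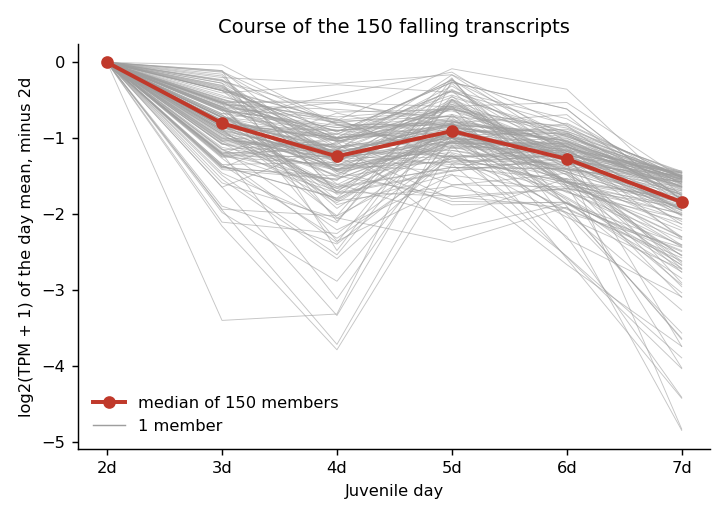
Course of each of the 150 members (grey lines) and their median (red), as log2(TPM + 1) of the daily mean minus that of Juvenile 2d, by juvenile day. The median line dips at 4d, comes up at 5d and ends at its lowest value at 7d, where the choice of members puts it.

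The days 3 to 6 entered the choice of members only as bounds, because every daily mean had to lie between those of 2d and 7d. The order of these days among themselves was free, and the comparisons among them were tested over all transcripts with edgeR's quasi-likelihood test and Benjamini-Hochberg adjustment, with a difference called at an adjusted p of up to 0.05. The 5 comparisons share libraries and are not independent of each other. Of the 150 members, 147 passed the filter on low counts, and g5430.t1, g11338.t1 and g11350.t1 did not. The genes g11338.t1 and g11350.t1 had equal daily means, and the estimated counts of each were not whole in 11 libraries. They are still counted as 2 members in the tallies of 150. A member with a high Juvenile 2d could pass through that day alone.

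At Juvenile 4d against 3d, the log2 fold change was negative in 142 of the 147 members and its median was -0.64, beside -0.01 over all 10436 transcripts tested. By libraries alone, all 3 values at 4d lay below all 3 values at 3d in 95 of 150 members, a share of 63.3%, while 18.4% of the 8068 transcripts with a mean of at least 5 TPM did so. The opposite order was seen in 2 members against 33.4% of those transcripts. In the test, 13 members were called lower at 4d (8.84% of those tested, with 5.37% of all transcripts) and 0 higher by edgeR, where 7.17% of all transcripts were called higher. An unadjusted p under 0.05 was reached in either direction by 40 members (27.2%, with 26.6% of all transcripts). DESeq2 called 20 members (13.3%), each of them lower, where 4.69% of all 14532 transcripts were called lower and 7.12% higher. The direction was shared widely, while few single members passed.

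At Juvenile 5d against 4d the members went the other way. The median log2 fold change was 0.50, against -0.03 over all transcripts, and 128 of 147 members were above 0. The 3 libraries of 5d lay above the 3 of 4d in 71 members (47.3%, against 20% of all transcripts of at least 5 TPM), and below them in 8 members (5.33%, against 40.7%). By edgeR, 22 of the 147 members were called higher at 5d (with 13% of all transcripts) and 0 lower, where 11.9% of all transcripts were called lower. Here 42 members had an unadjusted p under 0.05 by edgeR (28.6%, with 36.9% of all transcripts). DESeq2 called 31 (20.7%), each of them higher, where 9.89% of all 14532 transcripts were called higher and 10.2% lower. The 14532 include transcripts that edgeR's filter on low counts left out of its 10436. The DESeq2 and edgeR shares of all transcripts therefore have different bases. The share of members called higher by edgeR was near that of all transcripts, whereas the share with separate libraries was above it.

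The number of calls depended on which libraries set the spread. With all 18 libraries the biological coefficient of variation (the spread between libraries of a day beyond counting error) was 33.5%, and with Juvenile 2d to 5d alone it was 21.3%. In the fit of 2d to 5d, 95 members were called at 4d against 3d and each was lower, where 15.9% of all 10232 transcripts tested were called lower and 17.2% higher. In the same fit 83 were called higher at 5d than at 4d (with 21.9%) and 1 lower (with 22.1%). In that fit 59 members (40.1%) were called both lower at 4d against 3d and higher at 5d against 4d, with 8.72% of all transcripts. In the fit of all libraries 4 members (2.72%) were so called, with 2.91% of all transcripts, and these were g5729.t1, g5920.t1, g6143.t1 and g12451.t1. Both steps share the libraries of 4d. Leaving out Juvenile 6d replicate 1 alone gave 71 members called at 4d against 3d, each of them lower, where 11.2% of 10584 transcripts tested were lower and 10.2% higher. At 5d against 4d it gave 64, of which 63 were higher (with 18.1%) and 1 lower (with 14.9%). Leaving out a library of the days compared lowered the counts, and the shares of all transcripts called in either direction fell too. With all 18 libraries those shares were 12.5% at 4d against 3d and 24.8% at 5d against 4d. At 4d against 3d, 2 members were called without Juvenile 4d replicate 1 (with 5.05% of all transcripts) and 3 without 3d replicate 3 (with 4.63%). There were 5 without 4d replicate 2 (with 8.78%) and 7 without 3d replicate 2 (with 8.04%). At 5d against 4d there were 7 without 4d replicate 1 (with 17.1%). There were 10 without 4d replicate 2 (with 17.9%) and 12 without 5d replicate 2 (with 15.5%). Leaving out 6d replicate 3 raised the counts to 26 at 4d against 3d and 39 at 5d against 4d. The 26 were 17.6% of the members tested, with 15.5% of all transcripts in either direction and 6.99% lower. The 39 were 26.4%, with 27.7% of all transcripts in either direction. Of the 39, 38 were higher (with 14.04%) and 1 lower (with 13.7%). All member calls at 4d against 3d were in the lower direction in each of these fits.

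**Figure D3:**
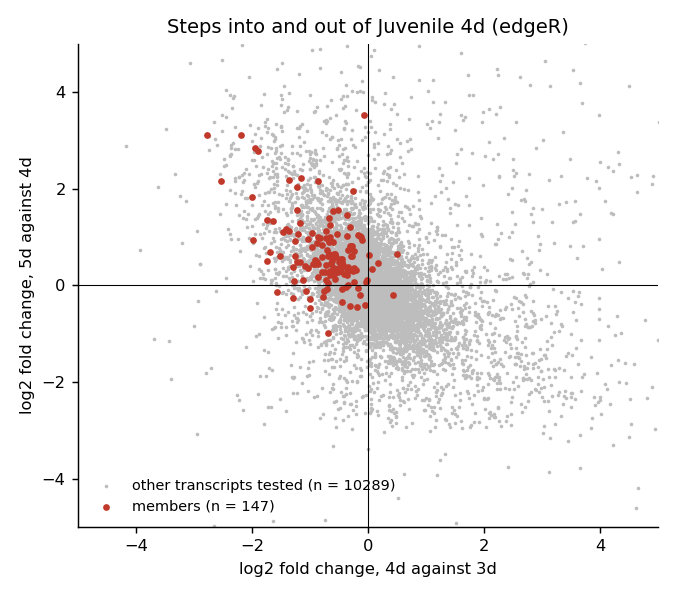
Log2 fold change at 5d against 4d (vertical axis) and at 4d against 3d (horizontal axis) from the edgeR fit of all 18 libraries, for 147 members (red) and the 10289 other transcripts tested (grey), of which 121 lie outside the axes. Both axes share Juvenile 4d, so points tend towards opposite signs, and 84.4% of the members and 33.4% of all transcripts lie in the upper left part of the plot.

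A dip at 4d was seen in the daily means of 113 members (75.3%, with 21.4% of the 7390 genes within the limits). In 51 members the 3 libraries of 4d were below all those of both 3d and 5d, a share of 34%, against 8.56% of the transcripts of at least 5 TPM. No member had the mirror order, in which 4d lies above both days, which 22.5% of those transcripts had. The dip was noticed in these values before it was counted. The 51 members stood at a median of 53.9% of their 2d level at 3d, 31.1% at 4d and 51.6% at 5d, and the other 99 at 58.3%, 45.3% and 52.4%. The lower 4d level of the 51 follows from the way they were split off. Their median coding length was 1248 bases and that of the other 99 was 840 bases. Their median mean level was also higher, at 90.3 TPM against 65.3 TPM, and neither difference was tested.

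Several members of highest rank had low values at 4d. For g6302.t1 the 3 libraries held 388, 399 and 351 TPM at 2d, 78.9, 91.1 and 124 TPM at 3d, 16.8, 24.02 and 43.4 TPM at 4d, 147, 180.0 and 207 TPM at 5d, 129, 40.4 and 21.4 TPM at 6d and 12.7, 22.5 and 31.7 TPM at 7d. Every library of 5d was above every library of 3d and 4d. The log2 fold change at 5d against 4d was 2.84 (SE 0.64, edgeR adjusted p = 0.00489), and the call held under each of the 29 alternatives run, with adjusted p up to 0.0289. The gene g9354.t1 had 146, 185 and 216 TPM at 5d, against 24.4, 27.5 and 39.2 TPM at 4d, and these did not overlap either (log2 fold change 2.78, SE 0.82, edgeR adjusted p = 0.0224). Its call was lost when Juvenile 4d replicate 1 or 2 or 5d replicate 2 or 3 was left out, with adjusted p between 0.0506 and 0.0869. For g5089.t1 the libraries held 5.89, 7.64 and 11.5 TPM at 3d, 1.41, 1.71 and 2.96 TPM at 4d and 9.08, 15.1 and 22.2 TPM at 5d, so the 4d values lay below those of both days (5d against 4d 3.10, SE 0.80, edgeR adjusted p = 0.0112, and 0.0536 without Juvenile 4d replicate 1). A gene of low level, g4398.t1, had 7.40, 7.94 and 5.87 TPM at 3d, 1.20, 2.23 and 0 TPM at 4d and 2.82, 11.2 and 12.03 TPM at 5d. Its 4d libraries lay below those of both other days, and 5d replicate 1 was close to them (5d against 4d 3.11, SE 1.07, edgeR adjusted p = 0.0464). The call was lost on leaving out any of 13 of the 18 libraries, namely all libraries of 2d to 4d, 5d replicates 2 and 3, and 7d replicates 1 and 2 (adjusted p 0.0547 to 0.135).

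In g2015.t1 the level was low by 3d. It had 54.1, 40.97 and 34.8 TPM at 2d, 3.26, 1.05 and 5.32 TPM at 3d, 0.530, 2.95 and 6.91 TPM at 4d and 19.7, 42.7 and 47.2 TPM at 5d. The level was low on both 3d and 4d, and 5d replicates 2 and 3 lay within the range of 2d. The log2 fold change was 3.53 at 5d against 4d (SE 0.90, edgeR adjusted p = 0.0101), a call kept in each of the 29 alternatives, and 3.45 at 5d against 3d (SE 0.89, edgeR adjusted p = 0.0141, and 0.0637 without Juvenile 3d replicate 2). At 7d the same gene had 0.514, 1.57 and 3.11 TPM, against a spread of 27.3, 11.6 and 1.34 TPM at 6d.

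The gene of the largest ranking value, g3794.t1, was at its second highest level at 5d. It had 200.4, 191 and 182 TPM at 2d, 64.8, 98.7 and 82.5 TPM at 3d, 53.2, 66.1 and 73.97 TPM at 4d, 111, 163 and 223 TPM at 5d, 117, 13.5 and 1.26 TPM at 6d and 5.25, 11.01 and 0.834 TPM at 7d. The libraries of 6d spanned the whole range between 5d and 7d. A like course was seen in g7615.t1, with 401, 417 and 398 TPM at 2d, 48.9, 68.8 and 82.7 TPM at 4d, 119.6, 165 and 235 TPM at 5d and 22.6, 19.4 and 12.5 TPM at 7d. Neither was called in a comparison of the fit of all libraries. In the fit of 2d to 5d, g3794.t1 was higher at 5d than at 4d by 1.56 (log2, SE 0.26, edgeR adjusted p = 0.000727) and g7615.t1 by 1.56 (SE 0.27, edgeR adjusted p = 0.000801). The gene ranked next to g3794.t1, g9228.t1, had 0, 3.31 and 0 TPM at 7d, against 39.9, 34.1 and 12.9 TPM at 5d, and its estimated counts were not whole in 16 libraries, which shows that its reads were divided between similar sequences. Its level is therefore uncertain.

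**Figure D4:**
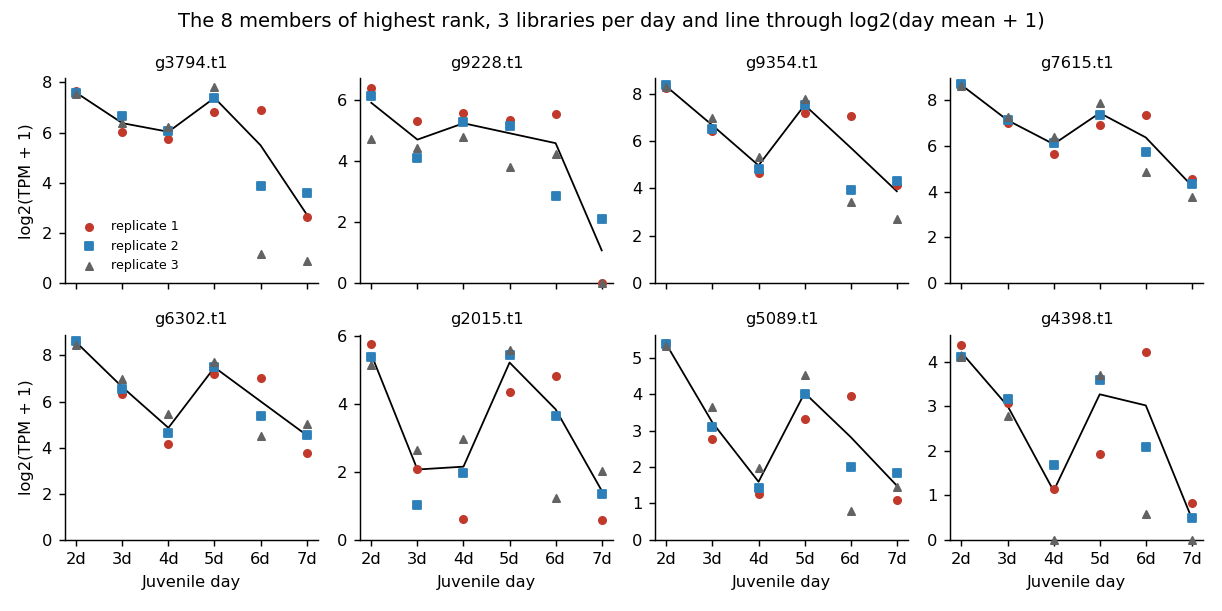
Log2(TPM + 1) of the 8 members of highest rank in each library (points, replicates 1 to 3) by juvenile day, with a line through the daily means. Levels are high at 2d, g6302.t1, g9354.t1 and g5089.t1 are low at 4d and higher at 5d, and at 6d replicate 1 lies above the other libraries in all 8.

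Of the members of highest mean TPM, g231.t1, g365.t1, g471.t1 and g3390.t1 were each lower at 4d than at 3d in their libraries, with no overlap. The gene g231.t1 had 1053, 1020.2 and 1223 TPM at 3d, 589, 848 and 823 TPM at 4d and 978, 1174 and 1192 TPM at 5d, after 1487, 1591 and 1514 TPM at 2d. The 4d libraries again lay below those of both other days. In g365.t1 the libraries held 981, 1080.1 and 1201 TPM at 3d, 413, 462 and 551 TPM at 4d and 768, 885 and 1101 TPM at 5d. It was called lower at 4d than at 3d (log2 fold change -1.37, SE 0.43, edgeR adjusted p = 0.0485), a call at the limit that was lost on leaving out any of 14 libraries (all libraries of 2d to 5d and 7d replicates 1 and 2), with adjusted p of 0.0583 to 0.187. For g471.t1 the libraries held 746, 801 and 819.6 TPM at 4d, against 829, 1048 and 1093 TPM at 3d. For g3390.t1 they held 655, 684 and 735 TPM at 4d, against 761, 983 and 1024 TPM at 3d. Neither was called with all libraries, and with 2d to 5d alone both were called lower at 4d, with a log2 fold change of -0.49 for g471.t1 (SE 0.15, edgeR adjusted p = 0.0319) and -0.59 for g3390.t1 (SE 0.15, edgeR adjusted p = 0.0136).

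In 28 members the mean of 5d was not above that of 4d. The one of highest mean TPM among these, g9050.t1, had 1937, 1759.8 and 2065 TPM at 2d and 1525, 1271 and 1196 TPM at 3d. It had 943, 919 and 926 TPM at 4d and 444, 436 and 365 TPM at 5d, with no overlap between these days from 3d on. It was lower at 5d than at 3d, with a log2 fold change of -1.67 (SE 0.41, edgeR adjusted p = 0.0106), a call kept in all 29 alternatives. Of the 147 members, 3 were called lower and 3 higher at 5d against 3d by edgeR, with 7.97% and 11.5% of all transcripts, and the median log2 fold change of the members was -0.13 against -0.02. Those lower were g556.t1, g7811.t1 and g9050.t1, and those higher g1168.t1, g2015.t1 and g10491.t1. Without Juvenile 6d replicate 1 there were 34 such calls, 19 lower (with 11.5%) and 15 higher (with 15.8%). Without 6d replicate 3 there were 14 (9.46%, with 22.1% of all transcripts in either direction). There were 3 (2.03%, with 11.6 to 13.9%) without Juvenile 3d replicate 1 or 3 or 5d replicate 1 or 2, and 2 (1.35%, with 11.1%) without 3d replicate 2. In the fit of 2d to 5d, 28 were lower (with 16.4%) and 22 higher (with 20.2%). The 3 libraries of 5d lay below those of 3d in 45 members (30%, with 27.8% of the transcripts of at least 5 TPM), so in this comparison the members stood near the background.

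At 6d the 3 libraries disagreed, and no comparison with that day can be read apart from this. Juvenile 6d replicate 1 was above both other 6d libraries in 146 of 150 members (97.3%, with 18.7% of the 7390 genes within the limits), and at least 2 times both of them in 92 (61.3%, with 3.73%). It was above all 3 libraries of 5d in 86 members (57.3%, with 18.9%). All 3 libraries of 6d were below those of 5d in 16 members (10.7%, with 9.66% of the transcripts of at least 5 TPM) and above them in 0 (with 8.65%), and below those of 3d in 21 (14%, with 11.8%). Replicates 2 and 3, in contrast, were both below all 3 libraries of 3d in 138 members (92%, with 19.7%), and below all of 5d in 127 (84.7%, with 16.9%). The mean of these 2 libraries was below the 7d mean in 68 members (45.3%, with 42.3%), so that without replicate 1 the rule would keep 82 of the 150. The rule asked for a 6d mean above the 7d mean, and those 68 members met it only through replicate 1. The shares of members with a high replicate 1 therefore follow in part from the choice, while the 7390 genes were not chosen so. Over all transcripts with a mean above 1 TPM, the libraries of 6d correlated with each other at 0.841 to 0.916 on the log scale, and those of 2d at 0.979 to 0.983. The median log2(TPM + 1) of the genes within the limits was 4.22 in 6d replicate 1 and 4.85 and 4.97 in replicates 2 and 3. In the 2d libraries it was 4.18 to 4.26. Replicate 1 was below both other 6d libraries in 69.9% of these genes and in 2% of the members. What set this library apart was not tested.

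With all libraries, 2 members were called lower at 6d than at 3d (with 3.55% of all transcripts) and 0 higher, and 2 lower at 6d than at 5d (with 3.73%) and 0 higher, by edgeR, where 7.13% and 4.91% of all transcripts were called higher. An unadjusted p under 0.05 was reached by 14 members in each comparison (9.52%), with 29.0% of all transcripts at 6d against 3d and 25.6% at 6d against 5d. DESeq2 called 7 members (4.67%) at 6d against 3d and 6 (4%) at 6d against 5d, each of them lower. Of all 14532 transcripts, 4.22% and 4.44% were lower and 6.90% and 4.35% higher. The members called lower at 6d against 5d were g1168.t1, with 129, 123 and 107 TPM at 6d against 257, 227 and 197 TPM at 5d, and g11188.t1, with 15.5, 15.1 and 12.4 TPM at 6d against 34.5, 38.9 and 32.8 TPM at 5d. In both, the 3 libraries of 6d were close together and below all those of 5d. Without Juvenile 6d replicate 1, 134 members were called at 6d against 3d, each of them lower, where 16.2% of the 10584 transcripts tested were lower and 18.3% higher. At 6d against 5d there were 123, again each lower, where 13.1% were lower and 13.4% higher. The members were chosen with replicate 1 in the 6d mean, so these counts also follow in part from the choice. Without Juvenile 7d replicate 3 the numbers were 5 (3.38%, with 18.3% of all transcripts in either direction) and 4 (2.70%, with 14.9%). Without Juvenile 6d replicate 1 and 7d replicate 3 together, a choice made after seeing the data, they were 136 and 136. Each of these was lower (91.9%), where 19.6% of the 10537 transcripts tested were lower and 23.5% higher at 6d against 3d, and 16.5% lower and 19.0% higher at 6d against 5d. At 6d against 3d, 1 member was called without any library of 2d or 3d, 4d replicate 3, 5d replicate 2 or 6d replicate 2, with 1.63 to 8.33% of all transcripts. At 6d against 5d it was 1 without 2d replicate 1 or 3, 5d replicate 2, or 6d replicate 2 or 3 (with 2.73 to 6.27%), and 0 without 5d replicate 1 (with 2.39%).

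The members called lower at 6d against 3d were g11964.t1 and g7811.t1. For g11964.t1 the libraries held 17.9, 14.02 and 13.96 TPM at 2d, 10.8, 6.04 and 12.8 TPM at 3d, 2.38, 4.18 and 3.79 TPM at 4d, 3.37, 5.85 and 5.41 TPM at 5d, 2.29, 1.17 and 1.28 TPM at 6d and 0.329, 0.338 and 0 TPM at 7d. The level at 6d lay below every library of 3d, in replicate 1 as well (log2 fold change -2.54, SE 0.45, edgeR adjusted p = 0.00542, at most 0.0355 on leaving out any library, and 0.113 with only the libraries of 3d and 6d). It was also lower at 4d than at 3d (log2 fold change -1.69, SE 0.42, edgeR adjusted p = 0.0173), a call lost without Juvenile 3d replicate 3 or 4d replicate 1 (adjusted p 0.0947 and 0.0992). For g7811.t1 the libraries held 13.3, 19.8 and 18.98 TPM at 3d, 6.49, 6.11 and 9.96 TPM at 5d and 10.5, 5.65 and 6.20 TPM at 6d (6d against 3d -1.18, SE 0.33, edgeR adjusted p = 0.0388). That call was lost on leaving out any of 10 libraries (all of 2d and 3d, 4d replicate 3, 5d replicate 2, and 6d replicates 2 and 3), with adjusted p of 0.0501 to 0.162, and with only the libraries of 3d and 6d (0.219).

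Several members had neighbouring gene numbers. Positions in the genome were not used here. There were 2 runs of 3 numbers and 3 pairs, with 12 members in all, and 29 members had another member within 5 numbers. No such count was made for other genes, so these numbers are a description and do not show that neighbouring is more frequent in the members. In the run g556.t1, g557.t1 and g558.t1 the libraries of 4d were below all those of 3d in each gene. The gene g557.t1 had 960.1, 931 and 1195 TPM at 2d, 745, 569 and 666 TPM at 3d, 238, 207 and 301 TPM at 4d and 195, 255 and 146 TPM at 5d. Its 4d and 5d libraries overlapped. In g556.t1 they held 80.4, 53.9 and 66.1 TPM at 3d, 30.7, 27.1 and 34.3 TPM at 4d and 20.5, 24.3 and 22.7 TPM at 5d. The level of g556.t1 at 5d was below every library of 4d, and it was called lower at 5d than at 3d (log2 fold change -1.56, SE 0.52, edgeR adjusted p = 0.0473), a call lost on leaving out any library of 2d to 5d or 7d replicate 1 or 2 (adjusted p 0.0567 to 0.144). The gene g558.t1 was lower at 4d, at 122, 170.0 and 154 TPM, than at 3d, at 323, 271 and 305 TPM (log2 fold change -1.18, SE 0.30, edgeR adjusted p = 0.0203). That call was lost without Juvenile 3d replicate 1 or 3 or 4d replicate 1 (adjusted p 0.0517 to 0.109). Of the numbers beside this run, g554.t1 is also a member. The genes g555.t1 and g559.t1, at means of 9.25 and 0 TPM, are not.

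In the other run, g10900.t1, g10901.t1 and g10902.t1, the daily mean of each gene was lower at 4d than at 3d and at 5d. The gene g10901.t1 had 264, 415 and 369 TPM at 3d, 297, 347 and 313 TPM at 4d and 366, 441 and 643 TPM at 5d, with overlap between 3d and 4d. In g10902.t1 the libraries held 199, 237 and 227 TPM at 3d, 139, 155 and 157 TPM at 4d and 189.9, 171 and 166 TPM at 5d. There the 4d libraries lay below those of both other days. The third, g10900.t1, held 21.9, 29.8 and 23.1 TPM at 3d, 20.6, 18.3 and 19.2 TPM at 4d and 27.8, 35.1 and 42.2 TPM at 5d, and its 4d libraries also lay below those of 3d and 5d. Of the numbers near this run, g10906.t1 is also a member. The genes g10899.t1 and g10903.t1, at means of 12.8 and 0.417 TPM, are not.

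The adjacent pair of highest summed TPM, g12451.t1 and g12452.t1, dipped together. The gene g12451.t1 had 734, 827 and 1098 TPM at 3d, 91.6, 162 and 259 TPM at 4d, 552, 741 and 741 TPM at 5d and 845, 142 and 95.7 TPM at 6d. Its 4d libraries lay below all those of 3d and 5d. It was called lower at 4d than at 3d (-2.54, SE 0.73, edgeR adjusted p = 0.0339) and higher at 5d than at 4d (2.15, SE 0.73, edgeR adjusted p = 0.0424). The first of these calls was lost on leaving out any library of 3d or 4d replicate 1 or 2 (adjusted p 0.0517 to 0.155), and the second on leaving out any of 12 libraries (all of 2d, 4d and 5d, 3d replicate 2, and 7d replicates 1 and 2), with adjusted p of 0.0505 to 0.151. Its neighbour g12452.t1 had 89.2, 88.00 and 115 TPM at 3d, 48.2, 55.8 and 64.3 TPM at 4d and 91.98, 116 and 104 TPM at 5d, with the same order of days (5d against 4d 1.08, SE 0.37, edgeR adjusted p = 0.047, lost without any of 13 libraries, all of 2d, 4d and 5d, 3d replicates 1 and 2 and 7d replicates 1 and 2, with adjusted p of 0.0524 to 0.158).

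On median, the members were shorter than the genes they were chosen from, which was not tested. Their coding length had a median of 927 bases (quartiles 596 and 1352), against 1146 bases (720.0 and 1679) for the 7390 genes within the limits, and 55.3% were under 1000 bases against 41.5%. Their mean level was also higher, at a median of 69.4 TPM against 26.2 TPM. Short coding sequences have small effective lengths, so few counts can give a high TPM. In g12451.t1, of 354 bases, the lowest count at 7d was 7 and the lowest value 64.9 TPM. In g7615.t1, of 888 bases, they were 17 and 12.5 TPM. Levels of genes of unlike length are therefore less comparable than levels of 1 gene between days. All estimated counts were whole in 140 of 150 members, so that reads of the other 10 were shared with similar sequences in at least 1 library. The spread between libraries of a day, as the median SD of log2(TPM + 1), was 0.0797 at 2d and 0.169 at 4d, against 0.134 and 0.174 for the genes within the limits, and at 6d it was 0.777 against 0.510. It was also larger in the members at 3d (0.171 against 0.160), 5d (0.236 against 0.188) and 7d (0.442 against 0.325). At 7d, replicate 3, the library with the fewest counts, was the lowest of the day in 118 members (78.7%, with 39.7% of the genes within the limits).

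Among the named families of the study, GSTs came closest to the course of the members. Of 21 GST transcripts 18 had a mean within the limits, 5 had the highest mean at 2d, the lowest at 7d and no overlap between those days, and 4 of these reached the ranking value of the last member. These are 27.8% and 22.2% of the 18, where 6.17% of the 7390 genes within the limits had this course and 2.03% also reached the value. Of 17 SOD transcripts 14 lay within the limits and 1 met the rule and the value. None of the 3 catalases, 5 cytoplasmic heat-soluble (CAHS) or 6 secretory heat-soluble (SAHS) proteins within the limits did, and none of the 12 molting pathway genes, of which 0 had a 2d mean above their 7d mean. These are families that the study chose to show, and their counts are a description.

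In the GST transcripts the dip at 4d was also present. Of 20 tested by edgeR, 9 were called lower at 4d against 3d (with 5.37% of all transcripts) and 7 higher at 5d against 4d (with 13%), with median log2 fold changes of -1.03 and 0.86. This order of medians was not particular to GSTs. In these comparisons they were -0.62 and 0.33 for 17 SODs (5 lower, then 3 higher). They were -0.71 and 0.68 for 12 CAHS (1 lower, then 4 higher). The 12 molting pathway genes went the other way, at 2.09 and -1.03 (6 higher, then 2 lower). For g6233.t1 the libraries held 317, 298 and 279 TPM at 2d, 77.9, 82.5 and 121 TPM at 3d, 11.95, 14.4 and 34.3 TPM at 4d, 75.4, 118 and 163 TPM at 5d, 143, 31.4 and 23.5 TPM at 6d and 11.1, 18.9 and 18.2 TPM at 7d. Its level was low at 4d and higher again at 5d, as in g6302.t1 (5d against 4d 2.72, SE 0.69, edgeR adjusted p = 0.00962, and at most 0.0497 on leaving out any library). At 4d against 3d it was lower, with a log2 fold change of -2.38 (SE 0.68, edgeR adjusted p = 0.0331), a call lost without any library of 3d or 4d replicate 1 or 2 (adjusted p 0.0504 to 0.151). The GST g1463.t1 kept its level until 5d and was then lower, with 78.7, 127 and 100.2 TPM at 3d, 138, 62.5 and 82.6 TPM at 5d and 36.4, 21.1 and 45.1 TPM at 6d. It was lower at 6d than at 3d (log2 fold change -1.61, SE 0.30, edgeR adjusted p = 0.00682) and than at 5d (-1.49, SE 0.30, edgeR adjusted p = 0.00948, and 0.0545 without Juvenile 5d replicate 1). Both calls were lost when the fit held only the days compared, with edgeR adjusted p of 0.123 at 6d against 3d and 0.184 at 6d against 5d. In replicate 1 of 6d it lay between the other 2 libraries.

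The other transcripts of the families that reached the ranking value of the last member were the GSTs g4663.t1 and g6525.t1 and the SOD g1258.t1, with ranking values of 2.68, 2.57 and 1.59. The tardigrade-specific gene labelled LEAM, g2978.t1 (1.27), the thioredoxin g7405.t1 (1.23) and the GST g9608.t1 (1.10) had the same course below that value. The GST g4663.t1 had 486, 539 and 560.5 TPM at 3d, 159, 314 and 255 TPM at 4d and 597, 79.2 and 17.8 TPM at 6d, and g6525.t1 had 89.7, 107 and 129 TPM at 3d, 42.5, 62.3 and 54.05 TPM at 4d and 163, 38.1 and 26.02 TPM at 6d. In both, replicate 1 of 6d was above every library of 5d. The SOD g1258.t1 had 64.5, 71.98 and 75.3 TPM at 3d, 47.02, 56.4 and 52.7 TPM at 4d and 49.9, 45.02 and 48.98 TPM at 5d. The lowest edgeR adjusted p of these 3 over the 5 comparisons was 0.219, for g6525.t1 at 4d against 3d.

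**Figure D5:**
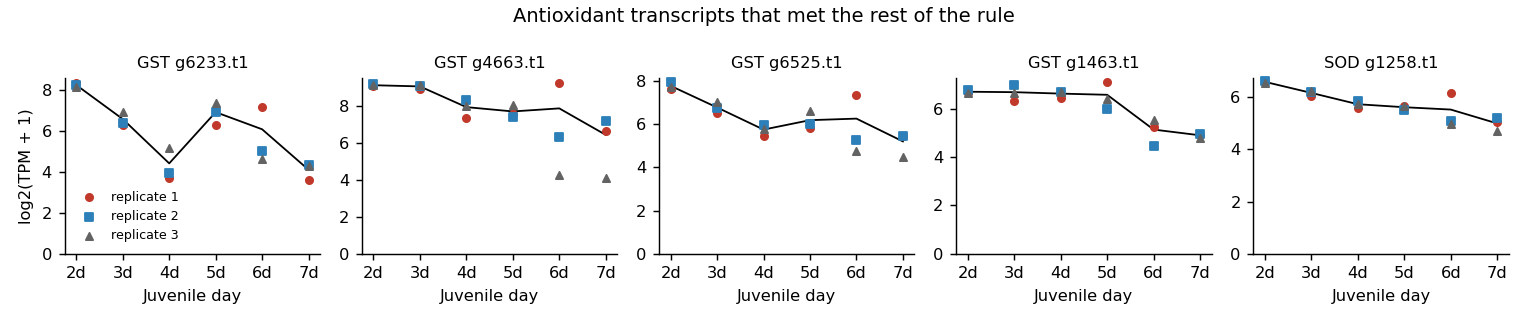
Log2(TPM + 1) of 4 GST transcripts and 1 SOD transcript in each library (points, replicates 1 to 3) by juvenile day, with a line through the daily means. All 5 are highest at 2d and lowest at 7d by the way they were chosen, and g6233.t1 has its low values of 4d, 11.95, 14.4 and 34.3 TPM, below those of 3d and 5d.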

How the data were processed

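Whole juveniles of R. varieornatus were measured by RNA-Seq in 18 libraries, 3 for each of 6 days, grouped by the day in the sample labels, from RNA amplified with a low-input kit (no molecular identifier is mentioned). The authors quantified reads on predicted coding sequences with kallisto (0.42.4 and 0.44.0 are both listed, with bcl2fastq 2) and deposited estimated counts per transcript without normalization. TPM values, which kallisto derives from such counts and effective lengths, were deposited too. In each library, 91.8 to 94.0% of the values were whole numbers. The matrix and the library files held equal TPM values, with a largest difference of 0.

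R 4.3.3 and edgeR 4.0.16 were used to test the rounded estimated counts (low counts removed by filterByExpr at a minimum of 10, TMM, quasi-likelihood F test, day as the only term, all 18 libraries), with Benjamini-Hochberg adjustment over all transcripts. The SE of a log2 fold change was its size over the square root of F. Comparisons across the days that chose the members were not tested. The alternatives were RLE and upper quartile factors, other filters, DESeq2 1.42.0, limma 3.58.1 on log2(TPM + 1) and log2(TPM + 0.1), fewer libraries, a replicate block and each library left out. The selection and the tests were tested on simulated data. Other values were computed in Python 3.11.15 with pandas 2.3.3 and numpy 2.4.6, and figures drawn with matplotlib 3.10.9.

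Named in the text were the 8 members of highest rank, the 5 others of highest mean TPM, up to 4 called lower at 6d against 3d and 4 called higher in any comparison by size, runs of 3 or more gene numbers, the adjacent pair of highest summed TPM, ranks 149 to 152, and the transcripts of the study's families that met the rest of the rule at or above the value of rank 150. The neighbours g554.t1, g555.t1, g559.t1, g10899.t1, g10903.t1, g10906.t1, g12450.t1 and g12453.t1 were named after their values were seen. So were the members g1168.t1, g5729.t1, g5920.t1, g6143.t1, g10491.t1 and g11188.t1, the 3 members not tested and the family transcripts g2978.t1, g7405.t1 and g9608.t1. The members and lists were chosen with earlier results of these data known.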

Additional observations from a re-analysis of the deposited data

How the results depend on the processing

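With 1250604 counts, Juvenile 7d replicate 3 had 8 members at 0 and 38 under 10 counts. Under 10 counts were also 13 members in 7d replicate 1 and 10 in 7d replicate 2. In 6d replicates 1, 2 and 3 there were 4, 14 and 18. Each library left out in turn gave between 2 and 71 members called at 4d against 3d (13 with all), 7 and 64 at 5d against 4d (22), 2 and 34 at 5d against 3d (6), 1 and 134 at 6d against 3d (2) and 0 and 123 at 6d against 5d (2). The highest value was without Juvenile 6d replicate 1 each time. There the shares were 48.0, 43.2, 23.0, 90.5 and 83.1% of the members, with 21.4, 33.0, 27.3, 34.4 and 26.5% of all transcripts in either direction. The lowest counts of the first 3 comparisons were 1.35, 4.73 and 1.35% of the members, with 5.05, 17.1 and 11.1% of all transcripts. Over the same removals the rule kept between 54.7 and 99.3% of the members, and between 43 and 86 had their largest drop at 3d.

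DESeq2 called 20 at 4d against 3d (13.3%, with 11.8% of all 14532 transcripts in either direction), 7 at 6d against 3d (4.67%, with 11.1%) and 6 at 6d against 5d (4%, with 8.79%). With limma on log2(TPM + 1) there were 13 at 5d against 3d, 12 at 6d against 3d and 10 at 6d against 5d, and on log2(TPM + 0.1) 11, 9 and 6. In either direction limma on log2(TPM + 1) called 16.6, 5.82 and 5.14% of all transcripts in these comparisons, and 8.67, 8 and 6.67% of the members. On log2(TPM + 0.1) it called 15.7, 4.88 and 4.48% of all transcripts, and 7.33, 6 and 4% of the members. Upper quartile factors gave 4 at 6d against 3d (2.72%, with 10.1% of all transcripts). When the fit held just the 2 days compared, the counts were 90 at 4d against 3d (each lower, 62.1%, with 13.8% of all transcripts lower), 69 at 5d against 4d (68 higher, with 19.4%, and 1 lower, with 19.1%), 41 at 5d against 3d (25 lower, with 14.8%, and 16 higher, with 17.8%) and, by edgeR, 0 at 6d against 3d and 0 at 6d against 5d, where 4 and 3 members had an unadjusted p under 0.05. With Juvenile 2d to 5d only they were 95, 84 and 50. Without Juvenile 6d replicate 1 and 7d replicate 3 together, chosen after seeing the data, they were 94 at 4d against 3d (63.5%, with 31.1% of all transcripts in either direction), 78 at 5d against 4d (52.7%, with 42.4%), 46 at 5d against 3d (31.1%, with 35.5%) and 136 in both comparisons of 6d. The median of libraries put 53 largest drops at 3d. The cause of these differences was not tested.

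The calls of single named transcripts were kept in 516 of 662 alternatives, lost in 146 and reversed in 0. Besides single removals, calls at 4d against 3d were lost under the block for g365.t1, g6233.t1, g6772.t1, g7811.t1 and g12451.t1, with RLE factors or no filter for g365.t1 and g7811.t1, and with limma on log2(TPM + 0.1) for g11964.t1. Calls at 5d against 4d were lost for g4398.t1, g12451.t1 and g12452.t1 under upper quartile factors, and for g12451.t1 and g12452.t1 under the block. They were also lost with no filter for g4398.t1 and g12452.t1, with RLE factors for g12452.t1 and with limma on log2(TPM + 0.1) for g4398.t1. The call of g556.t1 at 5d against 3d was lost with RLE factors, no filter or the block. That of g7811.t1 at 6d against 3d was lost under the block. Replicate numbers were shared between days. Deviations of 45 same-numbered pairs correlated between -0.305 and 0.193, with 5 above 0.1, and 1 of 18 libraries correlated best with its own number. No pairing by number was thus seen. The deviations are from means of 3 libraries, so this check cannot exclude a shared culture or preparation. A replicate block gave 8 members at 4d against 3d, 18 at 5d against 4d, 4 at 5d against 3d and 1 in each comparison of 6d, with 10.3, 22.1, 16.6, 6.86 (6d against 3d) and 6.39% (6d against 5d) of all transcripts.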
